A study of Mus musculus with 6 samples.

Results

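The 9 genes described here are genes that eosinophils are known for. They are the granule protein genes Prg2, Prg3 and Epx, the eosinophil-associated ribonuclease genes Ear1, Ear2, Ear6 and Ear10, the interleukin 5 receptor chain Il5ra and the lipoxygenase Alox15. They were taken as a list of names from the 14860 genes that had a row with a single gene symbol, keeping for each gene the row whose mean over the 6 arrays was highest. Of the 9, 6 had such a row, and Ear1, Ear2 and Ear10 were not measured here. The question was whether these genes differ between bone marrow cultures that lack miR-155 and cultures that carry it.

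RNA came from primary marrow progenitor cultures of female C57Bl/6 mice aged 12 weeks that had been treated with fluorouracil, which kills cycling marrow cells. All cultures of both groups carried MSCV retroviral constructs, a Hoxa9-GFP and a Meis1-YFP vector, and grew in DMEM with fetal calf serum, IL3, SCF and IL6. The 3 knockout arrays (KO) came from miR-155 KO marrow and the 3 wild-type arrays (WT) from marrow without that deletion, so both groups overexpress the homeobox genes and differ by label in miR-155 alone. The KO numbers are those of the titles, while the WT arrays were numbered here in listing order, so arrays of the same number in both groups are not a pair. The cells are transduced cultures and not sorted eosinophils, and nothing in the labels ties a culture to an animal. The p-values therefore measure spread among arrays that may be technical in part.

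Eosinophils are granulocytes that store cationic proteins in large granules and release them at sites of parasite infection and allergy. Their crystalloid core is made of major basic protein, the product of Prg2, and Prg3 encodes a close homologue of it. Epx encodes eosinophil peroxidase, a haem enzyme of the granule matrix. The Ear genes encode small ribonucleases of the ribonuclease A family, which have multiplied in rodents, and some of them are also read in macrophages. Il5ra is the chain that makes the receptor specific for interleukin 5, the main growth factor of the lineage. Prg2 is also made by basophils, and Alox15 by resident macrophages of the mouse. The deleted miR-155 is a microRNA that lowers the messengers it pairs with, mainly through its seed. Its mature 5p strand lies at chr16:84714143-84714165 on the plus strand of GRCm38.p6 and is given from RefSeq, with the seed, bases 2 to 8, in capitals.
mmu-miR-155-5p: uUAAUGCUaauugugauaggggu

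Every value below is a log2 level made by the authors with RMA (robust multi-array average), so a difference of 1 is a doubling. The 95th percentile of 718 olfactory receptor (Olfr) genes, which blood cells are not thought to use, lay at 5.98 and serves as the background level. Array medians ran from 6.55 to 6.66, and the median difference of all genes, KO minus WT, was −0.03. The level of miR-155 or its host transcript was not analysed here, so the labels stand unchecked on that point.

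The genes were of 3 kinds. Prg2 and Epx lay well above background on all 6 arrays, so RNA of the defining granule proteins was present in the cultures of both genotypes. Prg3 lay close to background and Ear6 reached it on 2 of the WT arrays. Il5ra and Alox15 lay below it on all 6 arrays, and nothing can be read from those rows about how much of either gene was present. The label therefore rests on the granule genes. A further surface marker, Ccr3, the eotaxin receptor, also lay below background, at 5.20 ± 0.16 in the KO and 5.17 ± 0.40 in the WT (SD, n = 3 each). Siglecf, a sialic acid binding receptor of eosinophils and some macrophages, lay above it, at 8.50 ± 0.13 in the KO and 8.21 ± 0.08 in the WT (SD, n = 3 each).

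**Figure D1:**
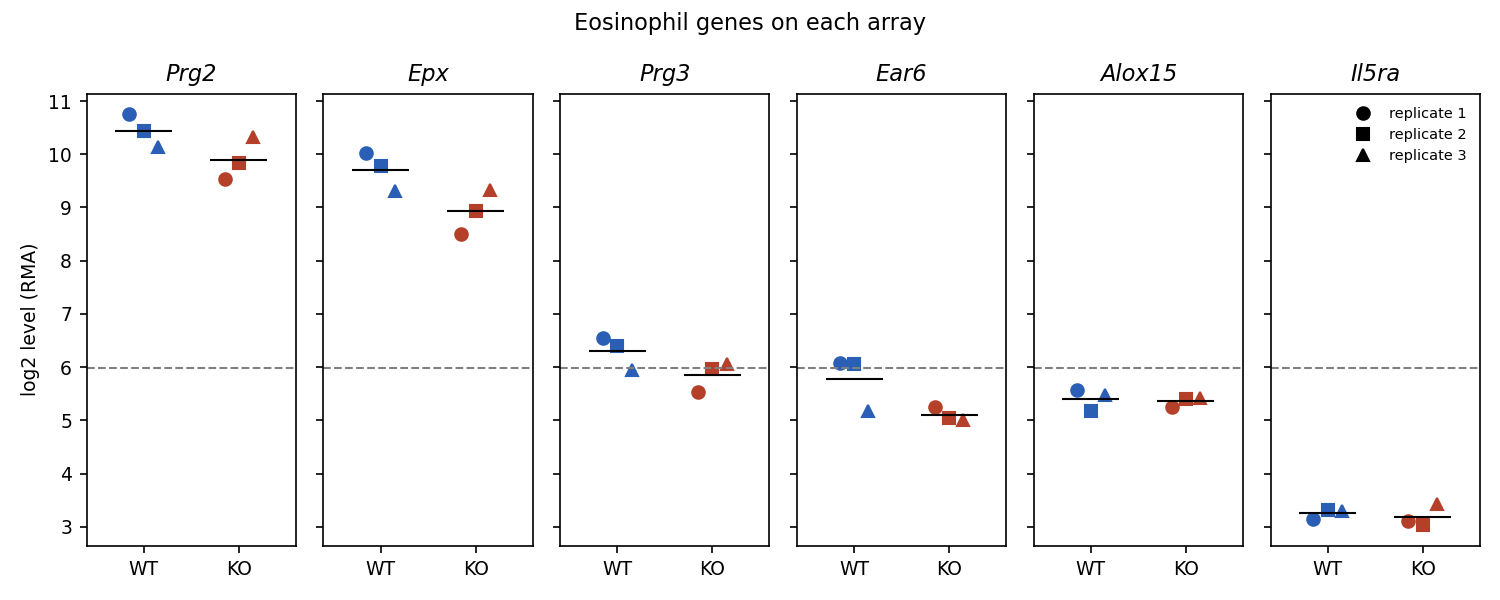
Log2 level (RMA) of the 6 measured eosinophil genes on each array, WT in blue and KO in red, with a marker shape per array number within its group (shapes pair no arrays) and a bar at each group's mean (n = 3); the dashed line is the Olfr background of 5.98. For Prg2, Epx and Prg3 WT array 3 lies among the KO arrays, while WT arrays 1 and 2 lie above all 3 of them.

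Epx had the largest mean difference of the 6 genes. Its log2 level was 8.51, 8.94 and 9.33 on KO arrays 1, 2 and 3, and 10.03, 9.77 and 9.30 on WT arrays 1, 2 and 3. WT array 3 thus lay just under KO array 3, and the groups overlapped. The means were 8.93 ± 0.41 in the KO and 9.70 ± 0.37 in the WT (SD, n = 3 each), a 1.71-fold lower mean level in the KO. The log2 difference was −0.78 with a standard error of 0.25 and a 95% interval from −1.35 to −0.20, and it did not pass adjustment over all genes (limma, adjusted p = 0.540).

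Prg2 gave the same order of the 6 arrays as Epx. Its level was 9.53, 9.83 and 10.32 on the KO arrays and 10.75, 10.44 and 10.13 on the WT arrays. Again KO array 3 lay above WT array 3, and the other 2 KO arrays lay below all WT arrays. The KO mean was 1.46-fold lower, a log2 difference of −0.55 (standard error 0.22, 95% interval from −1.08 to −0.02) that did not pass the adjusted test (limma, adjusted p = 0.672).

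Prg3 lies beside Prg2 on chromosome 2, at 84988196 to 84996559 against 84980461 to 84983632 in GRCm38.p6. It was read close to background, with 1 KO array and 2 WT arrays above 5.98. Its level was 5.53, 5.97 and 6.06 on the KO arrays and 6.55, 6.40 and 5.95 on the WT arrays, and here WT array 3 lay below 2 of the KO arrays. KO minus WT came to −0.45 (standard error 0.19, 95% interval from −0.89 to 0.002; limma, adjusted p = 0.693).

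Ear6, a ribonuclease gene of chromosome 14, differed among the arrays in another way. Its level was 5.26, 5.05 and 5.00 on the KO arrays and 6.08, 6.07 and 5.17 on the WT arrays. The 3 KO arrays and WT array 3 lay within 0.26 of each other, and WT arrays 1 and 2 stood about 0.97 and 0.96 above the KO mean. KO minus WT came to −0.67 (standard error 0.24, 95% interval from −1.23 to −0.11; limma, adjusted p = 0.601), a size that rests on 4 arrays below background.

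For the receptor and the lipoxygenase the intervals were narrow and held 0. Il5ra lay at 3.19 ± 0.21 in the KO and 3.25 ± 0.09 in the WT (SD, n = 3 each), under the median of the Olfr genes of 3.84, with a difference of −0.07 and a 95% interval from −0.34 to 0.21 (limma, adjusted p = 0.940). Alox15, which oxygenates arachidonic acid, lay at 5.36 ± 0.09 and 5.40 ± 0.20 (SD, n = 3 each), with a difference of −0.05 and a 95% interval from −0.31 to 0.22 (limma, adjusted p = 0.952). These intervals describe rows at background and do not bound a change in the genes.

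**Figure D2:**
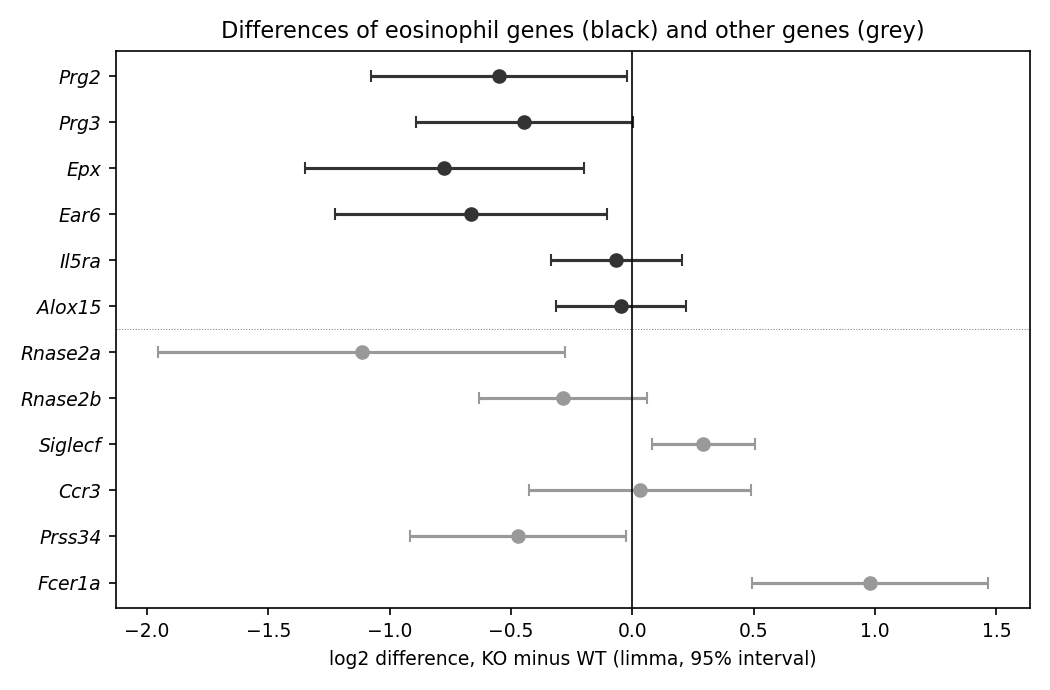
Log2 difference, KO minus WT, with the 95% interval of the limma fit (n = 3 arrays each), for the 6 measured eosinophil genes in black and 6 other genes in grey. The 4 granule and Ear6 differences lie between −0.78 and −0.45, while Siglecf (0.29) and Fcer1a (0.98) lie on the other side of 0.

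Counted together, all 6 measured genes had a mean difference below 0, against 61.0% of all genes, with a median of −0.50 against −0.03. Il5ra (−0.07) and Alox15 (−0.05) enter this count and median from rows below background whose sign turns when single arrays are left out, so both rest in part on genes with no readable level. Ear6, which also enters the count at an unadjusted p below, had a mean over the 6 arrays of 5.44. That mean too is below background, and 2 WT arrays alone lay above it. None of the 6 was called at an adjusted p under 0.05, where 4 of 14860 genes were called (0.0269%). At an unadjusted p under 0.05, 3 of the 6 were lower in the KO (Epx, Ear6 and Prg2) and 0 were higher, where the shares over all genes were 5.44% lower and 1.78% higher. None of the 6 separated the groups completely, where 10.4% of all genes lay lower in every KO array than in any WT array and 2.88% higher. The members were listed with earlier results of these data known, so these counts describe the list. With 3 arrays a group, the smallest two-sided p of an exact permutation test is 0.1. In a bulk culture fewer cells of a type and less RNA per cell cannot be told apart.

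Single arrays moved these differences. With WT array 3 left out, the Ear6 difference was −0.97 (limma, adjusted p = 0.155) and that of Epx −0.98 (adjusted p = 0.735). Without KO array 3 Epx stood at −0.98 and Prg2 at −0.76 (limma, adjusted p = 0.457 and 0.489). Without KO array 1 they were −0.57 and −0.37, Prg3 was −0.28, and the median of the 6 genes was −0.33. Prg2, Prg3, Epx and Ear6 stayed below 0 in all 24 such fits and passed the adjusted test in none. Il5ra turned to 0.01 without KO array 2, and Alox15 to 0.003 without KO array 1 and 0.03 without WT array 1.

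**Figure D3:**
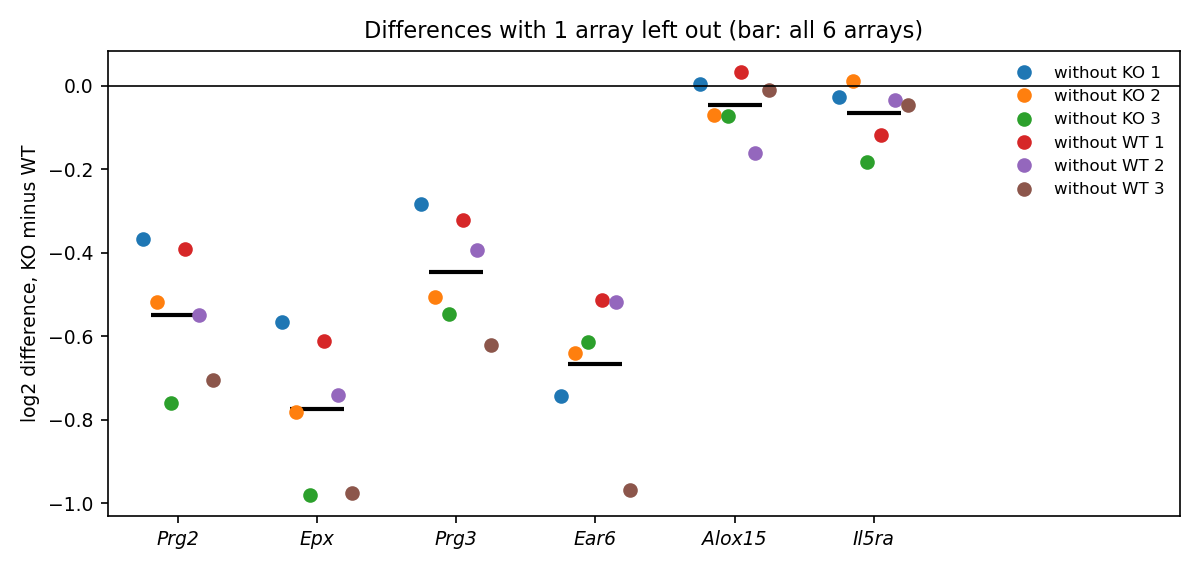
Log2 difference, KO minus WT, of each measured eosinophil gene with all 6 arrays (black bar) and with each array left out in turn (coloured points). Prg2, Epx, Prg3 and Ear6 keep values below 0 throughout, from −0.98 to −0.28, and Alox15 and Il5ra lie on both sides of 0.

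Prg2 and Epx, the pair above background on all 6 arrays, followed each other across arrays. The mean of their centred log2 levels was −0.72, −0.36 and 0.08 on the KO arrays and 0.65, 0.37 and −0.03 on the WT arrays. The range inside each genotype was thus wider than the gap between the genotype means. Pearson's r to this mean over the 6 arrays was 0.96 for Prg3, 0.72 for Ear6, 0.42 for Il5ra and 0.35 for Alox15, as a description with no test, since the arrays also share their genotype. Among 567 other named genes with both group means above background and an SD of at least 0.25, the most alike were Prss34 (r = 0.98), Trib2 (0.87), Glp1r (0.83), Akr1c18 (0.82) and Perp (0.79), and the least alike Cfl1 (−0.92), Golm2 (−0.90) and Uap1 (−0.87). Prss34 encodes a serine protease of basophils, Trib2 a pseudokinase and Glp1r the receptor for glucagon-like peptide 1.

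This form of the likeness was chosen after seeing the data. The form set earlier used Prg2, Prg3 and Epx and candidates whose mean over all 6 arrays was above background, a bar that Prg3 clears through its WT mean (5.85 in the KO and 6.30 in the WT). It put Hdhd3 (r = 0.99), Bmp2 (0.96), Prss34 (0.96), Trib2 (0.86) and Adm (0.85) first among 593 genes, and Cfl1 (−0.90), Golm2 (−0.87) and Mrpl22 (−0.86) last. Hdhd3 (5.87 and 6.16), Bmp2 (5.86 and 6.40) and Adm (5.98 and 6.36) had KO means below 5.98 and WT means above it, so their likeness to a profile that is higher in the WT is partly fixed by that choice, and nothing is read from it.

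Prss34 lay at 9.01, 9.28 and 9.74 on the KO arrays and at 10.04, 9.74 and 9.66 on the WT arrays. KO array 3 again lay inside the WT range. KO minus WT came to −0.47 (standard error 0.19; limma, adjusted p = 0.659), close to the value for Prg3. Among the 9 measured mast cell and basophil markers, Prss34 included, 3 lay below 0 and 6 above. Mcpt8 (0.14) and Ms4a2 (0.37) were among those above, with groups that overlapped.

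**Figure D4:**
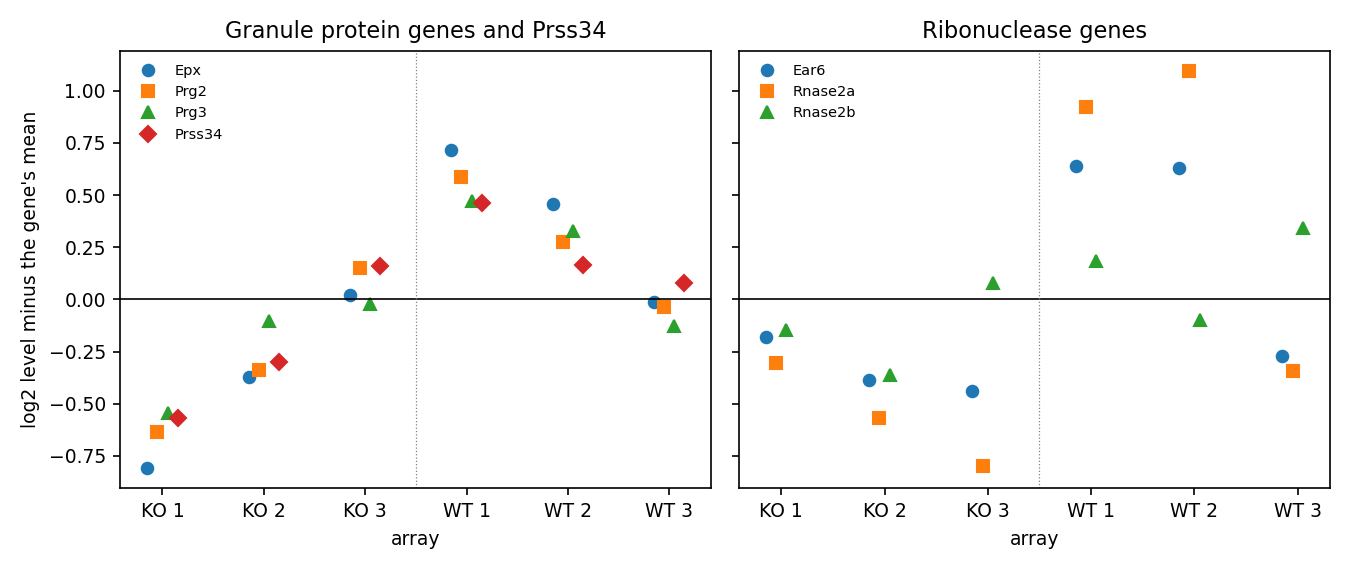
Log2 level of each gene minus its mean over the 6 arrays, by array, for Epx, Prg2, Prg3 and the basophil protease gene Prss34 (left) and for the ribonuclease genes Ear6, Rnase2a and Rnase2b (right). For Epx and Prg2 KO arrays 1 and 2 are low, WT arrays 1 and 2 high and the other 2 arrays near 0, with Prg3 on KO array 2 and Prss34 on WT array 2 closer to 0, and on the right Ear6 and Rnase2a are high on WT arrays 1 and 2 only.

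The Ear6 pattern was shared by a ribonuclease gene outside the list, Rnase2a, whose older name is Ear11 and which was chosen for mention after its values were seen. Rnase2a lay at 5.18, 4.91 and 4.68 on the KO arrays and at 6.41, 6.58 and 5.14 on the WT arrays. WT arrays 1 and 2 stood above background and the other 4 arrays below it. KO minus WT came to −1.12 (standard error 0.36, 95% interval from −1.96 to −0.28; limma, adjusted p = 0.554), and −1.57 without WT array 3 (adjusted p = 0.155). Rnase2b, formerly Ear5 and also named after its values were seen, stayed below background on all 6 arrays, with 4.08 ± 0.22 in the KO and 4.37 ± 0.22 in the WT (SD, n = 3 each) and a difference of −0.29 (limma, adjusted p = 0.757).

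These ribonuclease genes have near copies of the same sequence around their start, and the part before the start is shown for how alike they are there. Transcript and probe sequences were not compared, and whether the probes of the Ear6 and Rnase2a rows also read Ear1, Ear2 or Ear10 was not tested. RefSeq windows of GRCm38.p6 that hold 250 bases before and 50 after the start were at hand for 7 of the 9 listed genes, all but Prg2 and Alox15. Over aligned bases Ear6 was 89.6% identical to Rnase2a, 94.1% to Rnase2b, 92.8% to Ear1, 92.8% to Ear2 and 92.2% to Ear10. Ear1 and Ear2 were identical at 294 of 297 aligned bases. Shown are the 120 bases just before the start of Ear6 (chr14:51853648-51853767, plus strand), Rnase2a (chr14:51256113-51256232, minus), Rnase2b (chr14:51162140-51162259, plus), Ear2 (chr14:44102534-44102653, plus) and Ear10 (chr14:43923597-43923716, minus). Capitals mark a run of 39 bases that Ear6 and Rnase2a share, none of whose 12-base words is in the windows of Rnase2b, Ear1, Ear2 or Ear10. Not all of its bases are private to the pair. The start and the end of the run stand side by side in Ear1 and Ear2, and its start is also in Rnase2b. The stretch between them is what those windows lack.
Ear6: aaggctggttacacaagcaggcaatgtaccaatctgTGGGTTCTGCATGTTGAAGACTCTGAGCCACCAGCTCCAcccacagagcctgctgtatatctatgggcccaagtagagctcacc
Rnase2a: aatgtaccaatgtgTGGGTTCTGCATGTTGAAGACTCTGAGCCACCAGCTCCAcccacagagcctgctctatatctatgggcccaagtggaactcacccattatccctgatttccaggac
Rnase2b: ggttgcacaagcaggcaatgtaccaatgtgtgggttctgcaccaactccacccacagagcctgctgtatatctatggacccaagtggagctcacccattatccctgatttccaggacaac
Ear2: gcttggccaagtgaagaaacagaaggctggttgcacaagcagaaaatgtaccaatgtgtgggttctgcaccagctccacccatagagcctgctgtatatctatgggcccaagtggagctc
Ear10: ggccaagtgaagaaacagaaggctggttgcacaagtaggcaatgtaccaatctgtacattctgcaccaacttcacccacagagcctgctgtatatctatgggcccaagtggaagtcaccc

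The marked run was in 2 of all 32851 promoter windows, those of Ear6 and Rnase2a. This pair was set before the search, after their values were seen, because both stood high on WT arrays 1 and 2. The search kept only words that both hold and that Rnase2b, Ear1, Ear2 and Ear10 lack. That the run falls in this pair was therefore fixed by the search. Ear1, Ear2 and Ear10 had no row with a single gene symbol and Rnase2b lay below background. None of them thus gives a readable level here to set beside the pair. The run is a description of the windows. It begins 84 bases before the start of Ear6 and 106 before that of Rnase2a.

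The granule genes Epx and Prg3 are shown for a window of the same length, Epx at chr11:87875537-87875656 on the minus strand and Prg3 at chr2:84988095-84988214 on the plus strand. For Prg3 the table's window is set on a later start than the gene's first base, so the last 19 bases shown lie inside the gene. Capitals mark GATAA, the core of the site of GATA factors, which direct the eosinophil lineage, and TATAAA, the TATA box, each searched on both strands and with no overlap between them in these windows.
Epx: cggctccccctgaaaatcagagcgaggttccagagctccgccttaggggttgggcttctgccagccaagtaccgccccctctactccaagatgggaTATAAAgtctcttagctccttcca
Prg3: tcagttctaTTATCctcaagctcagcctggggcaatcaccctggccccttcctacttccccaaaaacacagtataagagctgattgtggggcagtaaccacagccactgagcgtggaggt
In the full windows GATAA was found in Ear1, Ear2, Ear6, Ear10, Rnase2a, Rnase2b, Prg3 and Il5ra and not in Epx, and 25.4% of all windows hold it. The ribonuclease windows are near copies of each other, so they do not count as separate finds against that share. In Ear1, Ear2, Ear6 and Ear10 the word lies just after the start, at bases 4, 7, 3 and 2. Enrichment was not tested. TATAAA was found in Epx alone of these, and 13.6% of all windows hold it.

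Other genes of the lineage are given from fixed lists, none of whose members other than those named here is described singly. Of 20 names of the wider ribonuclease A family, 7 had a row with a single gene symbol. Ear5 and Ear11 are among the 20 as older names of Rnase2b and Rnase2a. Of the 7 rows 5 lay below background, and 0 passed the adjusted test. Rnase6, an antimicrobial ribonuclease of phagocytes, was higher in every KO array, at 7.99 ± 0.17 against 7.55 ± 0.23 (SD, n = 3 each), a difference of 0.44 (limma, adjusted p = 0.538) that is opposite in sign to Ear6. Rnh1, the cytosolic inhibitor of these ribonucleases, differed by −0.09. Of the peroxidase relatives of Epx, Mpo, the enzyme of neutrophil granules, was higher in every KO array, at 13.18 ± 0.07 against 12.94 ± 0.03 (SD, n = 3 each), a difference of 0.24 (limma, adjusted p = 0.538), and Lpo lay below background.

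Of 13 measured transcription factors of the lineage 9 had a difference below 0, near the 61.0% of all genes that did. Their median was −0.04, and 0 passed the adjusted test. Gata1, without whose activity eosinophils do not form, was higher in every KO array, at 7.02, 7.03 and 7.07 against 6.96, 6.94 and 6.88 in the WT, a difference of 0.11 (standard error 0.07; limma, adjusted p = 0.799) opposite in sign to the granule genes. Gata2 differed by −0.18, Cebpa by −0.07 and Cebpe, which is needed for granule maturation, by −0.17, with standard errors of 0.11, 0.09 and 0.12 and groups that overlapped. Trib1, a pseudokinase that lowers C/EBP alpha, was lower in every KO array by 0.23 on the log2 scale (limma, adjusted p = 0.601), and Xbp1 differed by −0.05. Of 10 cytokine receptor and signal genes 9 lay below 0, against 61.0% of all genes, with a median of −0.16. Again 0 passed the adjusted test. In this list 2 genes were lower in every KO array, where 10.4% of all genes were. They were Stat5b (−0.19; limma, adjusted p = 0.697) and Cish (−0.24; adjusted p = 0.709). Csf2rb, the chain that Il5ra shares with the receptors for interleukin 3 and GM-CSF, lay at 11.50 ± 0.07 against 11.61 ± 0.08 (SD, n = 3 each), a difference of −0.11 (limma, adjusted p = 0.833).

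Of 12 measured surface and homing genes 6 lay below 0 and 6 above, where 61.0% of all genes lay below 0, and 0 passed the adjusted test. Adgre1, a surface antigen of macrophages and eosinophils, differed by −0.82 (standard error 0.10; limma, adjusted p = 0.0860), and the integrin chain Itgb7 by −0.56 (adjusted p = 0.431), each lower in every KO array. Siglecf was higher in every KO array, by 0.29 (standard error 0.09, limma, adjusted p = 0.538). Its difference was opposite in sign to those of the granule genes, while Adgre1 and Itgb7 had the same sign as the granule genes. Itgam differed by −0.28. Of 10 lipid mediator enzymes and 7 granule matrix and secretion genes 0 passed, with medians of −0.03 and −0.004. In these lists Alox12, below background, differed by 0.17, Lta4h by 0.07 and Srgn, the proteoglycan of granules, by −0.05.

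Markers of other marrow cells were read beside these values, and their part in the differences was not tested. Over all genes 61.0% had a difference below 0, and 2.88% were higher and 10.4% lower in every KO array than in any WT array. Of 9 measured mast cell and basophil markers 6 lay above 0 with a median of 0.14, 0 lay below background, and their mean log2 level ran from 9.22 to 9.65 on the KO arrays and from 9.06 to 9.29 on the WT arrays. Of these 9 markers 3 were higher in every KO array, Fcer1a (0.98, limma, adjusted p = 0.392) and Gzmb (0.67, adjusted p = 0.538) among them. Cpa3 differed by 0.07, and Prss34 had the negative difference given above. Of 11 neutrophil markers 8 lay above 0 with a median of 0.06 and a mean level of 10.37 to 10.52 on the KO arrays against 10.28 to 10.44 on the WT arrays, with Mmp8 (0.40) and S100a9 (0.28) higher and Lcn2 (−0.34) lower in every KO array and Elane at −0.03. Of 7 measured monocyte and macrophage markers 3 lay above 0 with a median of −0.001, a mean level of 8.43 to 8.70 against 8.46 to 8.65, and Ccr2 at 0.25. None of the markers in these 3 lists passed the adjusted test, and none lay below background.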

How the data were processed

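Per the submitters' processing notes, the authors made the deposited log2 values with RMA in Affymetrix Expression Console. Neither the version nor the summary level is given in the sources used here. Because RMA makes the arrays' distributions alike, it hides any shift in total RNA. Scanner files and detection calls were not used here, and the number of arrays limits the precision.

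Of 23332 rows, 14996 had 1 gene symbol in the platform annotation, 1019 several and 7317 none here. Groups were taken from the sample titles. All 14860 genes were fitted with limma 3.58.1 in R 4.3.3 (lmFit, eBayes, no filter on low values), and p-values are two-sided and Benjamini-Hochberg adjusted over all genes, with a threshold of 0.05. The fit was also run on simulated data with noise drawn independently for each gene and array. That run holds no array effects shared between genes, and no result here rests on it. Sequences were aligned with Biopython 1.88 and figures drawn with matplotlib 3.10.9.

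The members and lists were chosen with earlier results of these data known. All measured members are named. From each other list were named up to 4 genes with an unadjusted p under 0.05 and groups that do not overlap, with the list's row of highest mean. Outside this rule Ccr3, Gata1, Gata2, Cebpa, Cebpe, Cish, Lpo, Mcpt8, Ms4a2, Rnase2a, Rnase2b and Stat5b were named after their values were seen. Likeness was Pearson's r to the mean centred level of members above background, and, in a form added after seeing the data, of Prg2 and Epx alone. Alternatives were 2 scalings, array weights, a filter at the median level, mean rows, trend and robust variances, the first principal component and leaving out each array.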

Additional observations from a re-analysis of the deposited data

How the results depend on the processing

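Prg2, Prg3, Epx and Ear6 kept differences below 0 under every alternative that fitted them. Under every alternative run 0 of the measured eosinophil genes were called. The filter at the median level left Prg2 and Epx alone of the 6. The median of the 6 genes ran from −0.66 to −0.33 with 1 array left out, against −0.50 with all arrays. In the other alternatives that kept all 6 it ran from −0.59 (array weights) to −0.43 (first principal component). Under the filter the median was −0.66, for Prg2 and Epx alone. Alox15 turned to 0.0243 with the side of the first principal component in the model, and with 1 array left out it ran from −0.162 to 0.0326, above 0 without KO array 1 (0.00311) or WT array 1. Il5ra ran from −0.183 to 0.0120, above 0 without KO array 2. Both rows lie below background. The members below background numbered 3 at the 90th and 95th Olfr percentiles and 4 at the 99th. Over all genes, 4 were lower and 0 higher in the KO. The counts were 2 lower with median centring and 3 lower with quantile normalisation, with 0 higher in each. They were 11 lower and 5 higher with array weights, and 11 lower and 3 higher with the filter. With trend 8 were lower and 1 higher, and with the first principal component 3 were lower and 1 higher. With 1 array left out, 0 were lower and from 0 to 1 higher. The cause of these changes was not tested. No paired analysis was possible because the wild-type titles carry no replicate number that distinguishes the arrays.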
